A study of Arabidopsis thaliana with 12 samples.

Results

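The 268 transcripts described here were higher in Arabidopsis seedlings after 2 min of hydrogen peroxide (H2O2) and stood at about the same level after 8 min. They were chosen with 4 criteria on log2(normalized count + 1), where a normalized count is a read count divided by the size factor of its library. The mean over all libraries was at least 50, every one of the 9 H2O2 libraries was above every one of the 3 libraries at 0 min, the mean change at 2, 4 and 8 min was at least 0.25 each, and the 8 min mean was between -0.25 and 0.25 of the 2 min mean. Of 20972 listed genes, 16378 had the required level, 552 of these (3.37%) had all 9 H2O2 libraries above all 3 at 0 min, 337 also had the required changes, and 268 of them (1.64% of the 16378) held flat. The other members of the 337 were 66 transcripts that were still climbing at 8 min and 3 that were falling back. Turned upside down, the same criteria gave 398 transcripts (2.43%) with all 9 H2O2 libraries below all 3 at 0 min, 112 with the required changes and 103 held falls.

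The libraries came from 5-day-old wild-type Col-0 seedlings grown in liquid 0.5 x MS medium under constant light, each library from about 100 to 150 pooled whole seedlings. The 4 groups were distilled water at 0 min and 1 mM H2O2 for 2, 4 and 8 min, with 3 repeats of each. No water control was collected at 2, 4 or 8 min, so that H2O2 and the handling and time that went with it cannot be told apart. The selection used every library and every comparison with 0 min, and the values below are therefore a description of these libraries. In whole seedlings, a change in the share of a tissue and a change of RNA in each cell cannot be told apart.

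H2O2 is made outside the cell by the NADPH oxidases of the plasma membrane and inside the cell by chloroplasts, mitochondria and peroxisomes, and it enters cells in part through aquaporins. It acts as a signal by oxidizing cysteines of sensor proteins, and together with calcium it spreads from cell to cell as the reactive oxygen species (ROS) wave. The WRKY, MYB, ERF and heat shock factors are among the transcriptional regulators known to respond to it. Many known stress transcripts, such as the touch-induced TCH4, accumulate over many minutes.

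The size of the change was small in most of these transcripts. Against 0 min, the members at 2, 4 and 8 min had median log2 changes of 0.39, 0.45 and 0.41, within ranges of 0.25 to 1.24, 0.25 to 1.29 and 0.25 to 1.22. Over the 19485 genes tested the medians were -0.00, -0.01 and -0.00, and in the 66 climbing transcripts they were 0.48, 0.99 and 1.32. The mean of the 3 changes was at least 1 in 8 members and at least 0.5 in 69 members, while in 62 it was under 0.35. The lowest H2O2 library stood above the highest library at 0 min by a median of 0.09 on the log2 scale. Between 2 and 8 min the middle 50% of the members moved by -0.04 to 0.08.

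**Figure D1:**
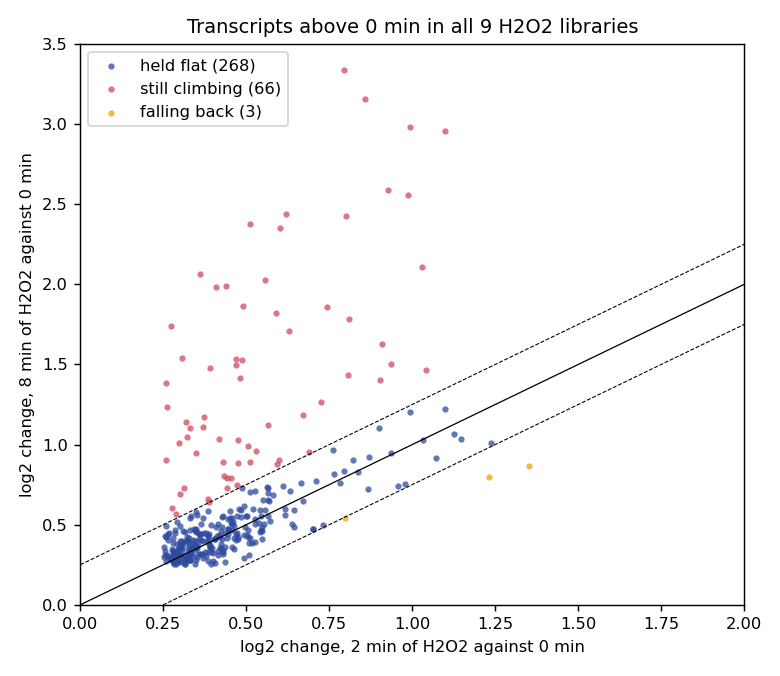
Each point is 1 of the 337 transcripts that were at least 0.25 above 0 min at all 3 times, with its log2 change at 2 min on the x axis and at 8 min on the y axis. The solid line marks equal change and the dashed lines 0.25 to either side; the 268 held-flat transcripts lie between them and reach 1.24 at 2 min and 1.22 at 8 min, and the climbing transcripts reach 3.34 at 8 min.

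Within the plateau the 4 min level was often the highest. The 4 min mean was above both the 2 and the 8 min mean in 163 of 268 members (60.8%), against 4723 of the 16378 genes with a mean of at least 50 (28.8%), and it was below both in 30 members (11.2%). The criteria used the 4 min libraries too, since each had to be above all libraries at 0 min and their mean change had to be at least 0.25, and they bounded the 2 and 8 min means only against each other, so that nothing can be read from the difference from the 28.8%. The median 4 min mean was 0.05 above the average of the 2 and 8 min means, on the log2 scale. Without replicate 1 of each time point the 4 min mean was the highest in 158 of the 268 members.

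Replicate 1 stood apart in these transcripts. The median member was above its 0 min mean by 0.45, 0.33 and 0.38 in replicates 1, 2 and 3 at 2 min, by 0.58, 0.41 and 0.39 at 4 min, and by 0.61, 0.31 and 0.33 at 8 min. At 0 min the same medians were 0.06, -0.03 and -0.02. Replicate 1 was the highest of its 3 libraries for 162 members at 2 min, 198 at 4 min and 219 at 8 min, whereas replicate 2 at 8 min was the lowest of the 9 H2O2 libraries for 80 members. Over all genes with a mean of at least 50 the library medians lay between -0.01 and 0.01; the size factors place the typical gene near 0 in every library. Without replicate 1 of each time point the medians over the 268 members were 0.38, 0.42 and 0.34. Applied to those 8 libraries, the criteria chose 407 transcripts, of which 177 were among the 268. A member keeps its separation in any part of the libraries, so only the limits on level, change and flatness could fail. Without 0 min replicate 1 alone the criteria chose 593, and without 0 min replicate 2 alone 415.

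**Figure D2:**
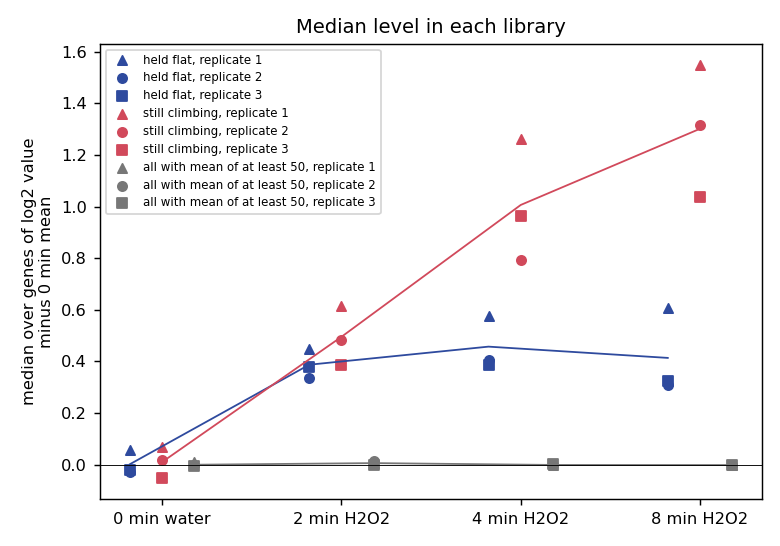
Median log2 value minus the 0 min mean (y axis) in each of the 12 libraries by time point (x axis), for the 268 held-flat transcripts, the 66 climbing transcripts and all genes with a mean of at least 50; triangles, circles and squares are replicates 1, 2 and 3 and lines join the averages. The held-flat medians lie between 0.31 and 0.61 in the H2O2 libraries, replicate 1 is the highest at each time, and the climbing medians reach 1.55 at 8 min.

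None of the 268 members passed the adjusted threshold of 0.05 at 2 min in limma (background 0.0% of genes tested called higher; lowest adjusted p among them 0.143), although 259 had an unadjusted p under 0.05. edgeR called 0 and DESeq2 called 29 of them at 2 min, where DESeq2 called 0.272% of all genes higher. At 4 min limma called 40 members (14.9%; background 0.754%) and at 8 min 28 members (10.4%; background 1.29%). edgeR called 35 and 31 (backgrounds 0.667% and 1.34%) and DESeq2 128 and 84 (backgrounds 1.89% and 1.92%). These contrasts were used to choose the members, and nothing can be read from the difference from the background. Without replicate 1 of each time point the counts were 0, 5 and 2, without 8 min replicate 1 they were 1, 117 and 4, and leaving out 0 min replicate 3 gave 0, 4 and 8. With the replicate number as a block in the limma fit they were 4, 131 and 73, though whether the numbers pair the libraries is not stated. Over the 12 fits that each left out 1 library, the counts ranged from 4 to 117 at 4 min and from 4 to 56 at 8 min, the last without 8 min replicate 2. Between 4 and 2 min, 8 and 2 min, and 8 and 4 min, limma, edgeR and DESeq2 called 0 members. Their backgrounds in these contrasts were 0.0821%, 0.077% and 0.2% higher at 4 than at 2 min, 0.626%, 0.652% and 0.837% higher at 8 than at 2 min, and 0.0%, 0.0% and 0.0103% lower at 8 than at 4 min. At an unadjusted p under 0.05 limma had 3 higher at 4 than at 2 min, 2 higher at 8 than at 2 min and 5 lower at 8 than at 4 min. The criteria bounded the 8 min mean against the 2 min mean, and the 4 min mean from below. Nothing can therefore be read from these counts between H2O2 times.

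Of the 15 members with the largest mean change, 8 have a gene name and are described first. FRO7, the ferric reductase of the chloroplast envelope, lies on chromosome 5 (chr5:20205302-20208777, minus strand, TAIR10.1). FRO7 (AT5G49740) had 165, 164 and 188 normalized counts at 0 min, 497, 267 and 400 at 2 min, 474, 444 and 357 at 4 min, and 604, 210 and 369 at 8 min. All H2O2 libraries were above all libraries at 0 min, and at 8 min replicate 1 was far above replicate 2. Its log2 changes were 1.13, 1.29 and 1.06 (limma SE 0.30 each). In FRO7, 379 of the 2708 stretches of 50 bases also occur in other genes, most often in AT5G49730, and the division of reads is uncertain.

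Enzymes of hormone synthesis were represented by 2 of the 15. YUC5 (AT5G43890, chr5:17648576-17650375, minus strand), a flavin monooxygenase of auxin synthesis, had 40.2, 34.8 and 33.6 normalized counts at 0 min, 61.8, 104 and 82.6 at 2 min, 79.7, 76.1 and 94.2 at 4 min, and 94.3, 66.8 and 66.7 at 8 min. Among all members YUC5 had the widest gap between the lowest H2O2 library and the highest library at 0 min, 0.61 on the log2 scale. ACS11 (AT4G08040, chr4:4886962-4889224, plus strand) encodes a 1-aminocyclopropane-1-carboxylate synthase, which makes the precursor of ethylene. ACS11 had 158, 213 and 227 normalized counts at 0 min, 343, 503 and 289 at 2 min, 610, 299 and 515 at 4 min, and 467, 553 and 296 at 8 min, and in this gene replicate 1 was not the highest at 2 or 8 min. Outside the 15, D27, a carotene isomerase of strigolactone synthesis, had log2 changes of 0.76, 0.85 and 0.81, and LOG1, which releases active cytokinin, had 0.29, 0.51 and 0.52; both were picked after their values were seen.

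Chloroplast carbon metabolism gave 2 further members. CT-BMY (AT4G17090, chr4:9604962-9607402, minus strand), the chloroplast beta-amylase that breaks down starch, had 905, 679 and 716 normalized counts at 0 min, 2057, 1167 and 1566 at 2 min, 2140, 1515 and 1203 at 4 min, and 2493, 975 and 1539 at 8 min. CP12-2 (AT3G62410, chr3:23090944-23091580, plus strand), a small redox-sensitive protein that binds enzymes of the Calvin-Benson cycle, had 1382, 1203 and 1064 normalized counts at 0 min, 2656, 1715 and 2354 at 2 min, 3337, 2188 and 2006 at 4 min, and 3058, 1391 and 1867 at 8 min. Both were highest in replicate 1 at every time, also at 0 min, and CP12-2 cleared the separation criterion by only 0.01 on the log2 scale. CT-BMY overlaps 2 annotated genes on the other strand; the strand used in counting was not given in the sources used here, and reads from the overlap cannot be told apart.

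RVE2 (AT5G37260, chr5:14751344-14753088, minus strand), a MYB-like factor of the family that holds the clock genes CCA1 and LHY, was the most abundant of the 15. It had 2151, 2103 and 1858 normalized counts at 0 min, 4205, 2966 and 4101 at 2 min, 4657, 3767 and 2841 at 4 min, and 5059, 2662 and 4235 at 8 min, with log2 changes of 0.87, 0.86 and 0.92 (SE 0.22 each). PI (AT5G20240), the MADS-box factor PISTILLATA of petals and stamens, was also in the list at a low level. PI had 90.1, 74.1 and 89.9 normalized counts at 0 min, 224, 144 and 150 at 2 min, 197, 124 and 129 at 4 min, and 310, 131 and 184 at 8 min.

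CSLB03 (AT2G32530, chr2:13809019-13813572, plus strand), a cellulose synthase-like protein, had the largest 2 min change of all members. CSLB03 had 276, 248 and 260 normalized counts at 0 min, 742, 509 and 620 at 2 min, 656, 526 and 653 at 4 min, and 991, 333 and 442 at 8 min. Its 8 min libraries covered 333 to 991, with replicate 1 far above the other two, and the 8 min change was 1.01 (SE 0.28). The next gene downstream, CSLB04 (AT2G32540), was a member too, with log2 changes of 0.52, 0.60 and 0.60. Of the 2568 stretches of 50 bases in CSLB03, 115 also occur in other genes, most often in CSLB04.

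The other 7 genes of the 15 carry only a locus name. AT5G06790, annotated as a cotton fiber protein, had the largest 8 min change, with 22.5, 33.7 and 31.8 normalized counts at 0 min, 74.7, 38.6 and 86.9 at 2 min, 106, 56.8 and 46.7 at 4 min, and 93.3, 46.9 and 74.5 at 8 min. Its mean log2 change was 1.16 with all libraries and 0.76 without replicate 1 of each time point. AT3G10190, an EF-hand calcium-binding protein, had 104, 207 and 118 at 0 min, 266, 228 and 296 at 2 min, 342, 274 and 293 at 4 min, and 262, 268 and 261 at 8 min, the tightest 8 min group of the 15. AT3G18950 (a WD40 repeat protein), AT3G15440 (RING/U-box), AT4G23870 and AT5G12110 (annotated as elongation factor 1-beta 1) had mean log2 changes of 0.88, 0.85, 0.88 and 0.88. In AT5G12110, 1172 of the 1817 stretches of 50 bases also occur in other genes, most often in AT5G12120 on the other strand. AT5G66052 depended on 1 library: it had 321, 974 and 677 normalized counts at 0 min, and its mean log2 change was 1.04 with all libraries, 0.59 without 0 min replicate 1 and 0.55 without replicate 1 of each time point. AT5G66052 too overlaps 2 annotated genes on the other strand.

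**Figure D3:**
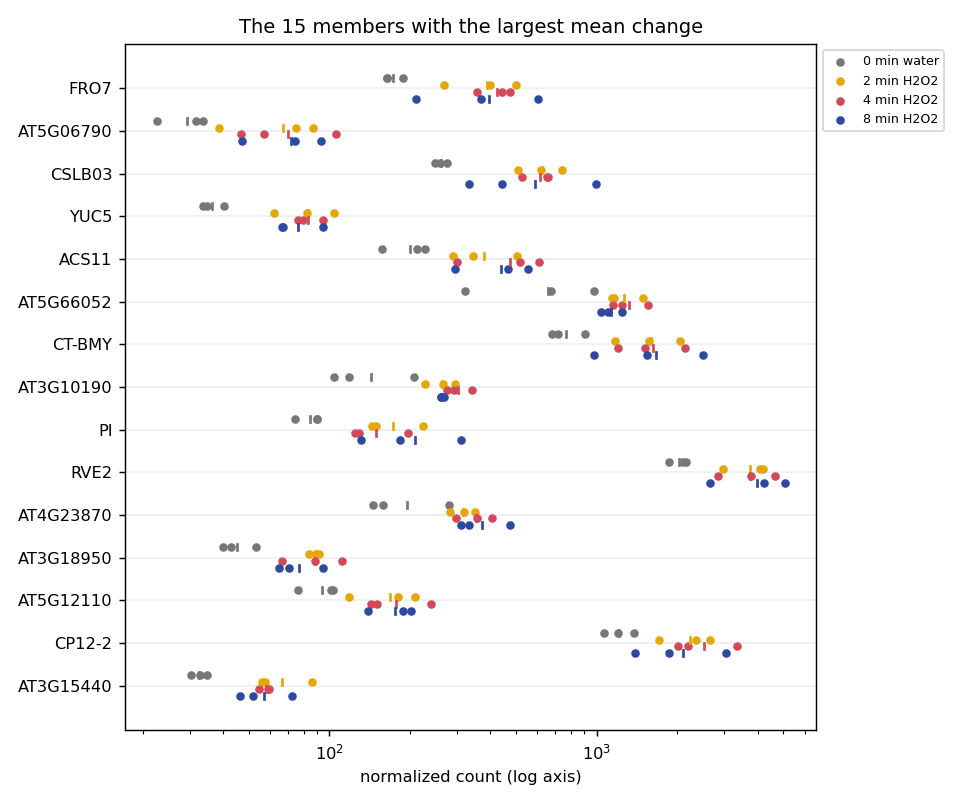
Normalized counts (x axis, log scale) of the 15 members with the largest mean change, 1 point for each library and a bar at the group mean, with the 0 min water libraries in grey and the 2, 4 and 8 min H2O2 libraries in yellow, red and blue from top to bottom of each gene. All H2O2 points of a gene lie to the right of its grey points, as the selection requires, and the yellow, red and blue ranges of each gene overlap, apart from the 4 and 8 min ranges of AT3G10190.

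The most abundant members differed less from 0 min. BT2 (AT3G48360), a BTB and TAZ domain protein of nitrogen and sugar responses, had 11996, 12268 and 11473 normalized counts at 0 min, 15045, 14802 and 14120 at 2 min, 17423, 15564 and 14772 at 4 min, and 16664, 15854 and 13573 at 8 min, log2 changes of 0.30, 0.42 and 0.36 (SE 0.09 each). ACR9 (AT2G39570), which carries the ACT domain of amino acid sensors, had log2 changes of 0.42, 0.42 and 0.38, FAD7 (AT3G11170), the chloroplast omega-3 desaturase, 0.39, 0.47 and 0.36, and CHUP1 (AT3G25690), which positions chloroplasts along actin, 0.28, 0.42 and 0.30. CR88 (AT2G04030), the HSP90 of the chloroplast, was the largest in this set: it had 5261, 4901 and 4768 normalized counts at 0 min, 9094, 7057 and 7751 at 2 min, 9506, 6592 and 7527 at 4 min, and 9422, 6644 and 7585 at 8 min. Its log2 changes of 0.67, 0.65 and 0.65 differed from each other by less than their SE of 0.14.

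The members at the 2 ends of the 4 min shape were low in level. AT1G64380, an AP2/ERF family protein, stood 0.36 above the average of its 2 and 8 min means at 4 min, with 38.2, 33.7 and 36.3 normalized counts at 0 min, 39.7, 51.4 and 60.0 at 2 min, 67.4, 69.6 and 59.9 at 4 min, and 64.7, 55.9 and 38.2 at 8 min. AT1G76220, the zinc finger gene ZF3 (AT5G43170), AT4G22980 and the proline transporter ProT3 (AT2G36590) followed at 0.36, 0.29, 0.26 and 0.26. At the other end, the 4 min mean of PI stood at -0.31 from that average, and those of AT3G04130, AT3G44690, the phloem protein PP2-A14 (AT5G52120) and the acetyltransferase AT4G32295 at -0.21, -0.21, -0.18 and -0.17.

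Near the thresholds the choice of members turned on small differences. AT3G02060, AT3G05345 and CIL had smallest changes of 0.2503, 0.2508 and 0.2512 and were members, whereas LCD1, AT2G14660 and AT5G03990 were left out at 0.247, 0.246 and 0.246. AT2G25460, AT2G27500 and EP3 held flat with a difference between 8 and 2 min of 0.239, 0.233 and 0.233 in size, and CIPK2, AT3G59880 and AT5G58120 were outside at 0.251, 0.253 and 0.262. By level, AT5G00980, AT5G01110 and AT1G64380 had means of 50.4, 50.6 and 51.3, against 48.8, 43.4 and 42.1 for AT1G60525, AT5G26720 and OTP82. SVL2, AT1G64380 and AT5G40400 had their lowest H2O2 library 0.0012, 0.0018 and 0.0018 above the highest library at 0 min, while AT3G48200, KCS13 and NUDX27 missed by -0.00027, -0.00042 and -0.00091. Of the genes that failed 1 criterion only, 201 failed the size of the change, 69 the flatness, 27 the level and 337 the separation. These 337 are other genes than the 337 with the required changes given at the start.

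The upstream sequences of 6 members are given, FRO7, RVE2 and ACS11 from the 15 above, and MYB30, PnsL2 and NdhT from the groups described below. The first 5 were picked with their motif matches in view and show where such matches lie, and NdhT shows a window that has none. Each is the 150 bases before the annotated transcript start, 5′ to 3′ on the strand of the gene, read from the TAIR10.1 genome. Capitals mark any match, on either strand, to one of 12 short motifs: TTGACC and TTGACT (W-box cores, bound by WRKY factors), CGCGT (CGCG box, CAMTA factors), CACGTG (G-box, bZIP and bHLH factors), GCCGCC (GCC box, ERF factors), GCCGAC (DRE core, DREB factors), GAANNTTC (heat shock element, heat shock factors), TATAAA (bound by the TATA-binding protein), TGGGCC (site II, TCP factors), AACCCTA (telo box), GATAAG (I-box) and AATATCT (evening element core).
FRO7 (chr5:20208778-20208927): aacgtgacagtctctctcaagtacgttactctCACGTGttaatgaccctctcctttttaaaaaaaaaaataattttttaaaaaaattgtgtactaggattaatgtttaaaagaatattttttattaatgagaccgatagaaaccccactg
RVE2 (chr5:14753089-14753238): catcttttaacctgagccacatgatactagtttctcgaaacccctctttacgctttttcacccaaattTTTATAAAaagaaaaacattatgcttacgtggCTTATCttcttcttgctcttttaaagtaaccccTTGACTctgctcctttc
ACS11 (chr4:4886812-4886961): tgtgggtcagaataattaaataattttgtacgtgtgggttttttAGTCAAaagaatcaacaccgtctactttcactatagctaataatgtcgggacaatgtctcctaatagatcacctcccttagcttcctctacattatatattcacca
MYB30 (chr3:10910982-10911131): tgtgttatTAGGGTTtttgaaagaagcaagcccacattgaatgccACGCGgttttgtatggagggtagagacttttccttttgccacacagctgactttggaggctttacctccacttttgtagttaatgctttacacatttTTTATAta
PnsL2 (chr1:4839651-4839800): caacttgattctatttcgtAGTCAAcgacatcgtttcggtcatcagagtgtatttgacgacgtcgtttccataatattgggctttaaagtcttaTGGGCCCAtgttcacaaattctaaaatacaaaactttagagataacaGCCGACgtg
NdhT (chr4:5932476-5932625): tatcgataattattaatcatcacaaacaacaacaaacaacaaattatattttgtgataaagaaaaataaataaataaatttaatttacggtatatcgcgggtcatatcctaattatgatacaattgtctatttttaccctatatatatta
The first 5 windows held a G-box in FRO7, overlapping TATA boxes, an I-box and a TTGACT core in RVE2, a TTGACT core in ACS11, a telo box, a CGCG box and a TATA box in MYB30, and a TTGACT core, overlapping site II motifs and a DRE core in PnsL2. Of the 18 member windows of this length that were read, 8 held none of the 12 motifs, and of the 9 windows of the chloroplast NDH genes described below, NdhT and PnsL2 included, only 3 held any. A match is a string of letters and not a bound site.

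Over the 250 bases before the start of all 268 members, the TTGACT core occurred in 25.7% of windows, against 18.7% of the 16296 windows of genes with a mean of at least 50 and 33.3% of the 66 climbing transcripts. The heat shock element occurred in 14.2% of member windows against 9.02% of the 16296, and the I-box, searched after the members were seen, in 18.7% against 12.7%. The CGCG box was in 8.96% of member windows, against 25.8% of the climbing transcripts and 7.47% of the 16296. The shares of the TTGACC core were 13.8% in members and 12% in the 16296, of the G-box 5.22% and 7.72%, of the TATA box 39.9% and 45.8%, of site II 14.9% and 17.7%, of the GCC box 1.87% and 1.95%, of the DRE core 1.12% and 2.92%, of the telo box 3.36% and 5.12%, and of the evening element core, also searched afterwards, 10.1% and 10.1%. Member windows had a median GC content of 31.6%, close to the 31.2% of the 16296.

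The NAD(P)H dehydrogenase-like (NDH) complex of the chloroplast was represented by 9 members. This complex in the thylakoid membrane passes electrons from ferredoxin to plastoquinone in cyclic electron flow around photosystem I; its Ndh subunits are shared with cyanobacteria or were added in plants, and the Pns subunits form subcomplexes B and L. The list of the 16 nuclear genes named Ndh or Pns that were listed was drawn up after the members were seen. All 16 had a mean above 0 min at all 3 times, with median log2 changes of 0.37, 0.52 and 0.40, and limma called 0 of them at 4 or 8 min after adjustment. The criteria fixed the direction in the 9 members, so that only the 7 others were free to differ in it.

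Among the Ndh subunits, NdhT (AT4G09350), which carries a DnaJ domain, had the largest change. NdhT had 189, 168 and 156 normalized counts at 0 min, 293, 190 and 289 at 2 min, 384, 298 and 249 at 4 min, and 369, 196 and 317 at 8 min, so that its lowest H2O2 library, replicate 2 at 2 min, almost touched the highest at 0 min. NdhU (AT5G21430), another DnaJ-type subunit, had 1150, 1147 and 1132 at 0 min, 1533, 1468 and 1562 at 2 min, 1994, 1473 and 1496 at 4 min, and 1957, 1350 and 1386 at 8 min, the clearest separation of the complex. NdhM and NdhO, subunits shared with cyanobacteria, had log2 changes of 0.47, 0.68 and 0.56 and of 0.37, 0.44 and 0.40. NdhM is the neighbour of another member, AT4G37920, on chromosome 4.

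Of the Pns subunits, PnsB1, PnsB2, PnsB4, PnsL2 and PnsL3 were members. PnsL3 (AT3G01440), a PsbQ-like protein, had 572, 491 and 459 normalized counts at 0 min, 789, 595 and 818 at 2 min, 1029, 733 and 745 at 4 min, and 899, 666 and 658 at 8 min. PnsB2 had log2 changes of 0.46, 0.61 and 0.52, PnsL2 of 0.35, 0.58 and 0.38, PnsB4 of 0.26, 0.45 and 0.40, and PnsB1 of 0.30, 0.42 and 0.37. Replicate 1 was again the highest library of all of them at 4 and 8 min.

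In all 7 genes of the complex outside the group, 1 or more H2O2 libraries were not above the highest library at 0 min. NdhN, PnsB3 and PnsL1 had changes as large as the members (0.54, 0.62 and 0.43 in NdhN, 0.39, 0.59 and 0.40 in PnsB3, and 0.37, 0.51 and 0.37 in PnsL1) and failed only on this separation. PnsL4 (0.19, 0.33 and 0.20), PnsB5 (0.10, 0.26 and 0.28), NdhS (0.09, 0.20 and 0.19) and Pnsl5 (0.02, 0.08 and 0.12) also had at least 1 change under 0.25. Without replicate 1 of each time point the medians over the 16 were 0.39, 0.42 and 0.29, and 15 of 16 were above 0 min at all 3 times. Factors that the complex needs were among the members: CRR7 (0.36, 0.55 and 0.32), an assembly factor, and CRR21 (0.42, 0.54 and 0.43) and DYW1 (0.43, 0.55 and 0.46), both of which act in editing of ndhD transcripts in the chloroplast. CRR7 and CRR21 were picked after their values were seen. No list of such factors was drawn up, so nothing can be read from their being members.

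**Figure D4:**
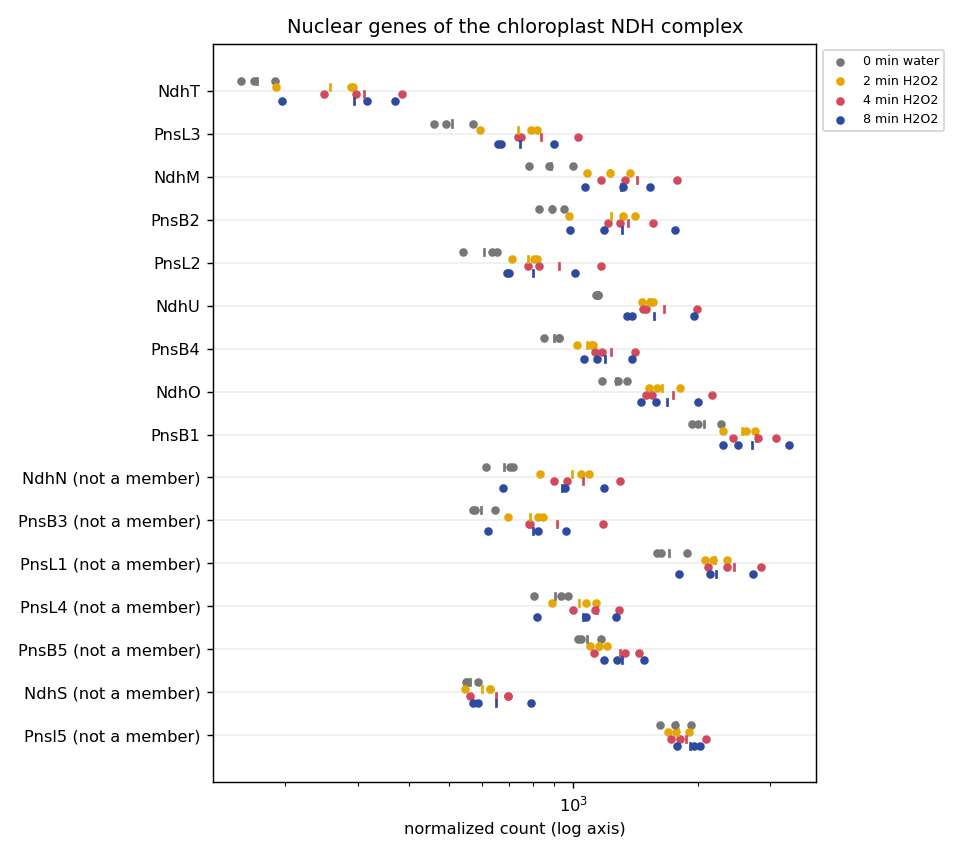
Normalized counts (x axis, log scale) of the 16 listed nuclear Ndh and Pns genes, 1 point for each library and a bar at the group mean, with 0 min water in grey and 2, 4 and 8 min of H2O2 in yellow, red and blue from top to bottom of each gene. In the 9 members the grey points lie left of all others; in the 7 genes marked as not members they overlap with H2O2 points, and Pnsl5 shows the smallest change.

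Members were sorted into 27 families by the annotated product, the first matching family being taken, and 167 members fell into none. Pentatricopeptide and tetratricopeptide repeat proteins, many of which bind and edit RNA of chloroplasts and mitochondria, made up 24 members of 371 measured genes (6.47%, against 1.64% of all genes with a mean of at least 50). Over the 371 the median log2 changes were 0.12, 0.10 and 0.10, against 0.00, -0.01 and -0.00 over all 16378, and 304, 274 and 278 of the 371 were above 0 min at 2, 4 and 8 min. The criteria fixed this direction in the 24 members, and the share above 0 min was not counted over all genes. Among the 66 climbing transcripts 1 was of this family (0.27% of the 371). AT5G01110 (0.48, 0.64 and 0.55), AT3G22150 (0.57, 0.55 and 0.52) and AT3G24000 (0.55, 0.51 and 0.41) had the largest changes next to DYW1. AT3G22150 had 743, 647 and 626 normalized counts at 0 min, 1056, 917 and 1019 at 2 min, 1002, 1037 and 910 at 4 min, and 1140, 823 and 950 at 8 min. Without replicate 1 of each time point, 13 of the 24 met the criteria, against 177 of all 268 members.

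Disease resistance proteins of the NB-LRR and TIR classes, the intracellular receptors for pathogen effectors, gave 12 members of 112 measured genes (10.7%, against 1.64% of all genes with a mean of at least 50). A further 4 of the 112 (3.57%) were among the 66 climbing transcripts. The median changes over the 112 were 0.22, 0.22 and 0.22, and 92, 93 and 98 of them were above 0 min at 2, 4 and 8 min. The direction was fixed in the 12 members, and the share above 0 min was not counted over all genes. WRR4 (AT1G56510), which confers resistance to white rust, had 599, 548 and 466 normalized counts at 0 min, 804, 823 and 715 at 2 min, 715, 799 and 759 at 4 min, and 867, 658 and 688 at 8 min. AT5G46490 (0.61, 0.72 and 0.74), AT4G09420 (0.70, 0.82 and 0.47), AT5G46270 (0.55, 0.43 and 0.48) and RPM1 (0.32, 0.51 and 0.40), a resistance gene against Pseudomonas syringae, were in the same group. These genes have close copies: 793 of 3001 stretches of 50 bases in AT5G46490 also occur in other genes, most often in AT5G46260, and the division of reads is uncertain. Of the 12, 9 met the criteria without replicate 1 of each time point, against 177 of all 268 members. BIK1, the receptor-like cytoplasmic kinase of immune receptor complexes, which was named after its values were seen, had 0.30, 0.32 and 0.34.

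Among the transcription factors, MYB30 (AT3G28910), which is a MYB factor of the hypersensitive response, had 667, 584 and 509 normalized counts at 0 min, 701, 801 and 745 at 2 min, 829, 834 and 828 at 4 min, and 775, 837 and 762 at 8 min. Its 4 min libraries agreed closely, its lowest H2O2 library was 0.07 above its highest library at 0 min on the log2 scale, and its log2 changes were 0.36, 0.51 and 0.44 (SE 0.09 each). MYB20 (0.62, 0.60 and 0.56) and MYB4 (0.44, 0.47 and 0.42), a repressor of phenylpropanoid genes, completed the 3 MYB members of 72 (4.17%, against 1.64% of all genes with a mean of at least 50), and all 3 met the criteria without replicate 1 of each time point. WRKY11 and WRKY72 were 2 of 42 WRKY factors (4.76%), AT1G64380 and CRF11 2 of 46 ERF and DREB factors (4.35%), NAC13 1 of 32 NAC factors (3.12%), 1 of 75 bHLH factors was a member (1.33%), and none of 40 bZIP factors was a member.

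A set of GATA and B-box factors of light and cytokinin responses was noticed after the values were seen. GNC (AT5G56860), a GATA factor that promotes chlorophyll synthesis, had 585, 606 and 602 normalized counts at 0 min, 839, 753 and 907 at 2 min, 889, 851 and 756 at 4 min, and 915, 711 and 767 at 8 min. Its close relative CGA1 had log2 changes of 0.64, 0.53 and 0.49. The B-box proteins COL9 (0.55, 0.66 and 0.46), BBX15 (0.50, 0.56 and 0.47) and BZS1 (0.53, 0.63 and 0.39) were of like size. In all 5 the 3 groups of H2O2 libraries overlapped each other. Among the 321 zinc finger proteins, 5 were members (1.56%), of which PMZ (AT3G28210), an AN1-type zinc finger gene, had 0.45, 0.56 and 0.58.

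Chaperones gave 7 members of 203 (3.45%), and 4 of them were DnaJ proteins, NdhT and NdhU included. Besides CR88, Cpn60beta4 (AT1G26230), a chloroplast chaperonin subunit, had log2 changes of 0.64, 0.69 and 0.59, and the DnaJ protein AT3G14200 had 0.35, 0.55 and 0.56. Cytochrome P450s gave 4 of 117 (3.42%), CYP71B11 (0.66, 0.79 and 0.76), CYP71B3 (0.55, 0.62 and 0.50), CYP706A5 (0.41, 0.48 and 0.31) and CYP94D2 (0.32, 0.36 and 0.30). Cell wall proteins gave 6 of 229 (2.62%), among them XTH18 (AT4G30280), a xyloglucan-modifying enzyme (0.31, 0.57 and 0.45), and PME1 (AT4G12390), annotated as a pectin methylesterase inhibitor (0.46, 0.47 and 0.36). Over the 229 the medians were -0.15, -0.14 and -0.13.

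Kinases and ubiquitin ligases were members about as often as other genes. Receptor-like kinases gave 5 of 247 (2.02%), with AT4G28350 (0.54, 0.75 and 0.59), WAKL2 (0.46, 0.39 and 0.54), AT4G02410 (0.33, 0.48 and 0.56) and AT4G04960 (0.36, 0.45 and 0.41) the largest, and other protein kinases 5 of 392 (1.28%). The kinase AT1G65190 had 268, 250 and 246 normalized counts at 0 min, 476, 420 and 422 at 2 min, 684, 436 and 428 at 4 min, and 607, 360 and 370 at 8 min. AT3G57720 (0.56, 0.60 and 0.65), ACDO1 (0.43, 0.41 and 0.33), a kinase-like protein of the chloroplast, and AT3G22750 (0.40, 0.42 and 0.33) were smaller. In AT3G57720, 1712 of the 4020 stretches are shared with other genes, most often with AT3G57730 on the other strand. RING, U-box and F-box proteins gave 9 of 553 (1.63%), with AT3G59250 (0.84, 0.81 and 0.83), MEE16 (0.46, 0.62 and 0.47) and KUF1 (0.38, 0.62 and 0.45) next to AT3G15440. Ribosomal proteins (300 measured), protein phosphatases (102) and glutathione transferases (31) had no member, and transporters and channels 2 of 419 (0.477%).

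**Figure D5:**
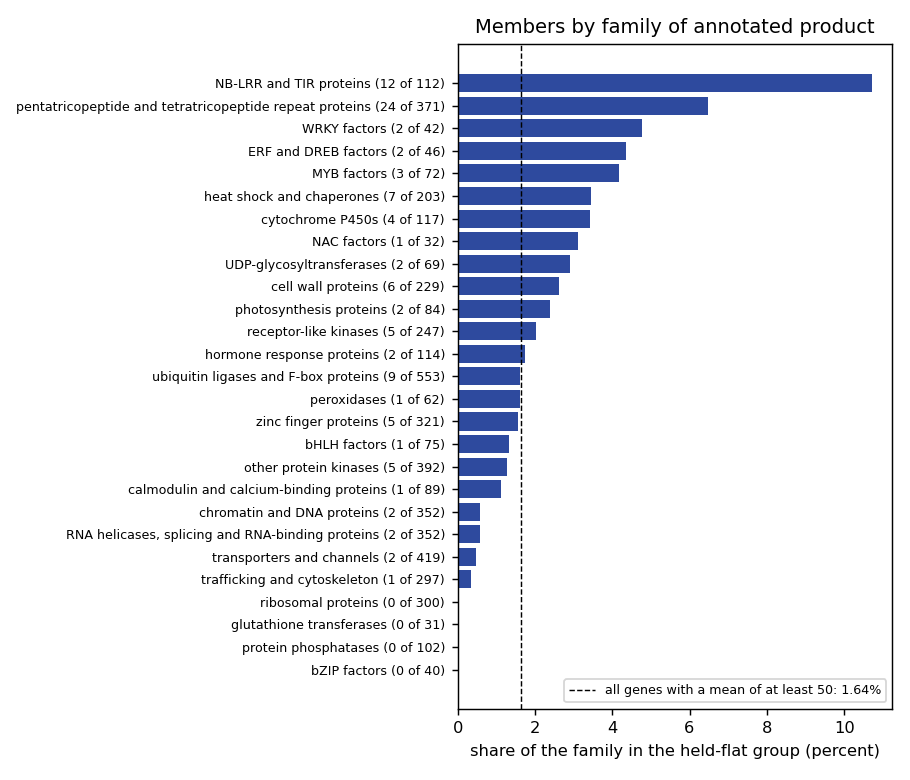
Share of the measured genes of each of the 27 product families that belong to the 268 held-flat transcripts (x axis, percent), with the counts beside each family name and a dashed line at the 1.64% of all genes with a mean of at least 50. NB-LRR and TIR proteins have the longest bar at 10.7% and 4 families have no member.

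Other chloroplast members were spread over several roles and were named after their values were seen. NYC1, a chlorophyll b reductase, had log2 changes of 0.33, 0.47 and 0.28, FC2, the ferrochelatase of haem synthesis, 0.37, 0.44 and 0.32, SIGC, a sigma factor of the plastid RNA polymerase, 0.31, 0.31 and 0.29, and ENH1, a rubredoxin-like protein, 0.57, 0.68 and 0.55. CCB1 (0.31, 0.43 and 0.39) and CCB4 (0.31, 0.42 and 0.35) attach haem to cytochrome b6, and PMI2 (0.56, 0.69 and 0.70), like CHUP1, is needed for chloroplast movement. The 84 genes annotated as photosynthesis proteins gave 2 members (2.38%, against 1.64% of all genes with a mean of at least 50), LPA19 and AT2G28605. Of the 84, 16 had all 9 H2O2 libraries below all 3 at 0 min, and 4 had all 9 above. Over all genes with a mean of at least 50 these shares were 2.43% and 3.37%.

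In gene structure the members stood between the typical gene and the climbing transcripts. Of the members 21.6% had 1 exon, against 12.5% of genes with a mean of at least 50 and 66.7% of the climbing transcripts, and the median exon number was 3, against 5 and 1. The median transcript length was 1770 bases in members, 1801 in genes with a mean of at least 50 and 1337 in climbing transcripts. Transcript GC content had a median of 39.8% in members, against 41.4% and 39.6%. With the trend of each library with GC content removed, the criteria chose 243 transcripts, of which 208 were among the 268.

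Members were found on all 5 chromosomes, in shares of 1.46% to 1.92% of the measured genes. There were 7 pairs of members that were neighbours in the annotation, 13 genes in all. Counting each pair from both sides, 14 of the 254 measured neighbours of members were members (5.51%). Of all genes with a mean of at least 50, 1.64% were members. Beside CSLB03 with CSLB04 these were AT1G56500 with WRR4 and WRR4 with AT1G56520, ACR9 with AT2G39560, PME1 with Hop3, NdhM with AT4G37920, and RCAR3 with FTSH11. PME1 and Hop3 overlap on opposite strands, from position 7338018 to 7338180 of chromosome 4. CSLB03 with CSLB04, WRR4 with AT1G56520, and PME1 with Hop3 also share stretches of 50 bases. In all, 88 members overlapped another annotated gene, 77 of them a gene on the other strand, and 17 shared more than 20% of their 50-base stretches with other genes. The shares over all genes were not counted, so these numbers show only where reads may be uncertain.

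Depth and marker genes bear on all of these values. The libraries held 13558388 to 26618274 reads in listed genes. The deepest was 8 min replicate 2, which was also the lowest of the 9 H2O2 libraries for 80 members. The part of depth in this was not tested. The summed normalized count of 12 root markers was 2233 to 3168 in the H2O2 libraries and 3071 to 3572 in the 0 min water libraries; 1, 2 and 2 of the 12 were above 0 min at 2, 4 and 8 min. That of 12 shoot markers was 926125 to 1169020 in the H2O2 libraries and 992211 to 1234410 in the 0 min water libraries, with 6 of 12 above 0 min at each time. The light-harvesting genes CAB2, LHCB2.1, LHCB2.2 and LHCB3 had all 9 H2O2 libraries below all 3 at 0 min, as did 2.43% of genes with a mean of at least 50. In the same list CA1 (0.48, 0.63 and 0.57), RBCS1B (0.53, 0.58 and 0.35) and RBCS2B (0.40, 0.45 and 0.34) had the largest rises, without all 9 libraries above. The summed normalized count of 4 touch genes was 5332 to 12085 in the H2O2 libraries and 4701 to 6279 in the 0 min water libraries, with 3, 4 and 4 of 4 above 0 min. No marker list had a gene at 0, and none of the 28 markers was a member. The part of tissue shares and of touch in the result was not tested.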

How the data were processed

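RNA of whole seedlings was sequenced by the authors as single-end reads, and the submitters' processing notes name FastQC 0.11.7, STAR 2.4.0.1, DESeq2 1.20.0 and the build TAIR10; the counting program and its strand setting were not given in the sources used here. The deposited table holds 1 signal value for each gene and library, the authors' read count divided by a DESeq2 size factor. Dividing by the step of each library returned whole reads for 100% of values (tolerance 0.001 reads).

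Changes are differences of mean log2(normalized count + 1). The main fit was limma 3.58.1 with a variance trend over all 12 libraries and the 19485 genes with a mean of at least 10, with Benjamini-Hochberg adjustment and a threshold of 0.05; edgeR 4.0.16 (quasi-likelihood) and DESeq2 1.42.0 were run on recovered reads. The fits were tested on simulated data. SEs are limma's. The labels number the repeats 1 to 3 and state that the whole experiment was done 3 times; whether a number marks a shared day is not stated, and p-values measure the spread between these libraries only.

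The members, gene lists, families and motifs were chosen with earlier results of these data known. Genes named are the 15 members with the largest mean change, the 5 most abundant, the 5 highest and 5 lowest at 4 min, the 3 nearest each threshold on either side, and up to 4 from each family with at least 3 members; others are said to be chosen after their values were seen or illustrate a list. Gene models, coordinates and sequences are from RefSeq's TAIR10.1 annotation, which matched 20858 of 20972 listed genes and all 268 members. Share of sequence between genes was counted over stretches of 50 bases.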

Additional observations from a re-analysis of the deposited data

How the results depend on the processing

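The medians of the 268 members moved by less than the spread of the library medians under every alternative run. That spread is the SD of the 3 library medians, 0.06, 0.10 and 0.17 at 2, 4 and 8 min. Leaving out 1 library gave 0.36 to 0.42 at 2 min, 0.40 to 0.50 at 4 min and 0.31 to 0.46 at 8 min. The 268 were chosen with all 12 libraries and held fixed here, so nothing can be read from this stability. The number of members was 132 with each change at least 0.35, and 407 without replicate 1 of each time point, an alternative added after the data were seen. Leaving out 1 library in turn gave 193 to 593 members. The count was 593 without 0 min replicate 1 (254 of the 268 included), 415 without 0 min replicate 2 and 313 without 0 min replicate 3. It was 193 without 8 min replicate 1. A left-out library can only loosen the separation criterion, while it can shift the group means either way. The part of each in these differences was not tested. Quantile normalization gave 253, TMM factors 275 and removal of the GC trend 243.

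The counts of members past the threshold were not stable. At 2 min they were 29 with DESeq2 and 26 with a separate fit for each comparison, and 0 to 1 without 1 library. At 4 min they were 128 with DESeq2, 4 to 117 without 1 library (4 without 4 min replicate 1 or 0 min replicate 3, 117 without 8 min replicate 1) and 5 without replicate 1 of each time point. At 8 min they were 84 with DESeq2, 6 with a separate fit, 4 to 56 without 1 library (4 without 8 min replicate 1, 56 without 8 min replicate 2) and 2 without replicate 1 of each time point. The cause was not tested. Whether the replicate numbers pair the libraries is not stated, and the values at hand do not settle it. Deviations of same-numbered libraries correlated at -0.33 to 0.26, against -0.34 to 0.46 for others. Replicate 1 was the highest library of its group for 147, 162, 198 and 219 of the 268 members at 0, 2, 4 and 8 min. With a replicate block the counts were 4, 131 and 73.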
